A study of Homo sapiens with 12 samples.

Results

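The genes described here are 3 regulators of the NRF2 pathway, NFE2L2 (which encodes the transcription factor NRF2), KEAP1 and CUL3, and 7 of its target genes, NQO1, GCLM, GCLC, TXNRD1, SLC7A11, SRXN1 and HMOX1. They were chosen by name and not by a measured value, although earlier results of these data were known at the time. They are 10 of the 20037 protein-coding genes of the RefSeq table used. A peak was assigned to a gene when it had a height of 3 or more and lay within 10 kb of the RefSeq span of the gene. Height is the pileup at the summit of a peak, in whole units, as the authors' peak caller gave it. The 10 genes held 32 to 49 of 52869 to 63295 peaks in the libraries of one cell line and 52 to 63 of 104208 to 123109 in those of the other.

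The libraries are ATAC-seq libraries, in which a transposase cuts accessible DNA and the ends are sequenced, from KYSE150 and KYSE510 cells, both established lines of human squamous carcinoma of the oesophagus, grown in RPMI-1640 with serum. Each line had a control group and a group with silencing of HCP5, a long non-coding RNA, with 3 libraries in each of the 4 groups (KYSE150 control, KYSE150 HCP5-silenced, KYSE510 control and KYSE510 HCP5-silenced). The labels give neither the method of silencing nor what the control cells received, and a peak table measures no RNA, so the level of HCP5 was not checked here. Nothing says that the libraries of a group came from separate cultures, so p-values measure the spread between these libraries, which may be technical.

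NRF2 is a leucine-zipper transcription factor that pairs with small MAF proteins and binds antioxidant response elements. KEAP1 holds NRF2 and, as the adaptor of a ubiquitin ligase built on CUL3, marks it for degradation until oxidants or electrophiles modify KEAP1. NRF2 then raises genes of glutathione and thioredoxin chemistry, of cystine uptake, and of quinone and haem handling. Mutations that release NRF2 from this control are a known feature of oesophageal squamous carcinoma.

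A peak within 10 kb was present in all 6 libraries at 9 of the 10 genes in KYSE150, where KEAP1 lacked one in silenced replicate 3, and at 10 of 10 in KYSE510. The same held for 71.4% of all protein-coding genes in KYSE150 and 82.8% in KYSE510. The commonest local background under the peaks, solved from each peak's height and fold enrichment, was 0.083 to 0.108 height units in KYSE150 and 0.180 to 0.217 in KYSE510. The shortest list and the lowest background were both in KYSE150 silenced replicate 3. Sequencing depth is unknown because no read counts were used, and line and any difference in sequencing or peak calling cannot be told apart. Of the squamous markers, TP63, KRT5, KRT14, KRT17 and CDH1 had a peak in all 12 libraries, while SOX2 had one in 6 of 6 KYSE510 and 0 of 6 KYSE150 libraries. Of the other markers, ALB (liver) had a peak in 0 libraries, and CDX2 (gut) had one in 6 of 6 KYSE510 and 0 of 6 KYSE150 libraries. CD3E (T cells) peaks were at most 7 high. VIL1 (gut) had a peak in all 12 libraries, at most 7 high in KYSE150 and 9 in KYSE510. The KRT14 peaks were also low, at most 9 and 10 high. PTPRC (white blood cells) had peaks 7 to 17 high in KYSE150 and 15 to 23 in KYSE510, in a window that can also hold neighbouring genes. TP63 peaks were 13 to 19 and 13 to 22 high, so peak height did not separate squamous from other markers.

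The sequences just before the start sites are shown first, because the antioxidant response element is the site through which NRF2 acts and because the peaks separate alternative starts of the same gene. RefSeq windows (GRCh38.p14), from 250 bases before to 50 after a start, were available for 12 starts of 8 of the genes; there were none for SLC7A11 and HMOX1. The element core was searched on both strands as TGACNNNGC, and the AP-1 site, which shares letters with it, as TGANTCA. The element core matched 4 of the 12 windows, against 13.8% of 22199 windows of all genes. The AP-1 letters matched 0 of 12, against 6.15% of all windows. The 2 motifs overlapped each other in 109 of all windows. A match describes letters only and is not a bound site. The 250 bases before the start are printed below 5′ to 3′ on the strand of the gene, with matches to the element core in capitals. They are given for the 4 windows with a match and for NQO1. The NQO1 start lay under the tallest peak of the set, and its window held no match. That peak (chr16:69726300-69727113 in KYSE150) reached further upstream than the window, and the letters there were not searched. The printed stretches are chr1:93909431-93909680 on the minus strand for GCLM, chr12:104215529-104215778 and chr12:104286782-104287031 on the plus strand for the outer and inner TXNRD1 starts, chr19:10502772-10503021 on the minus strand for the inner KEAP1 start, and chr16:69726561-69726810 on the minus strand for NQO1.
GCLM: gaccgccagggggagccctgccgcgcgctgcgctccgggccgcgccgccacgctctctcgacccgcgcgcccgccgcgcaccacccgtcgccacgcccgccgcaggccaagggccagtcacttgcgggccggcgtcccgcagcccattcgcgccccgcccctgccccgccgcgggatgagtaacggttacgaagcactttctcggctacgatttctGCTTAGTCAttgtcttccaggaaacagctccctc
TXNRD1 outer start: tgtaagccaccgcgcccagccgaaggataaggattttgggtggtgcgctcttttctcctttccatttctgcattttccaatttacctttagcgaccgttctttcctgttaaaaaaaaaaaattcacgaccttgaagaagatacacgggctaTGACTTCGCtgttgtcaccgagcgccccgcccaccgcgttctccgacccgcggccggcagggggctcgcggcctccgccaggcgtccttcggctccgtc
TXNRD1 inner start: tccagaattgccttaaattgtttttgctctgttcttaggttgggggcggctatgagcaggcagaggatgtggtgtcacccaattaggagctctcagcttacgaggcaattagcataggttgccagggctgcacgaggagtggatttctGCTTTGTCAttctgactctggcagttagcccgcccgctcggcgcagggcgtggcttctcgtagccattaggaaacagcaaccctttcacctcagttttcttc
KEAP1 inner start: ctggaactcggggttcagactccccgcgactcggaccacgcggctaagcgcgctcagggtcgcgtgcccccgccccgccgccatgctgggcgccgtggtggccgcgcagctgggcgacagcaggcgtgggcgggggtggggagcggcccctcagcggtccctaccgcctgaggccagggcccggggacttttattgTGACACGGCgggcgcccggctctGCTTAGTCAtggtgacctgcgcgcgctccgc
NQO1: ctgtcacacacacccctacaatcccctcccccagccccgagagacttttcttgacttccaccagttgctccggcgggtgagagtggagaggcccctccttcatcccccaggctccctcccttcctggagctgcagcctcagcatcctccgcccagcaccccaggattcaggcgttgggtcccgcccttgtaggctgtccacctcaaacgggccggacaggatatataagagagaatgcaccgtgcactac
Counted back from the start, the first base of the match was at -34 in GCLM (GCTTAGTCA, the motif on the minus strand of the window), at -99 at the outer TXNRD1 start (TGACTTCGC) and at -102 at the inner TXNRD1 start (GCTTTGTCA). The inner KEAP1 window held matches at -54 (TGACACGGC) and -31 (GCTTAGTCA). A further match at the outer TXNRD1 start, beginning at -8, ran past the start and is not in capitals.

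Windows with a match were under peaks of very different heights. A peak in all 6 libraries covered part of 6 of the 12 windows in KYSE150 and 5 of 12 in KYSE510, against 32.6% and 39.3% of all windows. The window of the inner TXNRD1 start had a peak over part of it in all 12 libraries. That of the outer start, which also holds a match, had one in 0 of 12. The NQO1 and GCLM windows had a peak in all 12 libraries. The inner KEAP1 window, with 2 matches, had one in 5 of 6 KYSE150 libraries (at most 9 high) and 4 of 6 KYSE510 libraries (at most 5 high).

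Tallest peaks ranged from among the highest of a library to near the lower limit. In the median library, the tallest peak at NQO1 stood at the 99.4th percentile of all peaks of the library in KYSE150 and the 99.2nd in KYSE510, that at CUL3 at the 98.0th and 98.9th, and that at KEAP1 at the 34.8th and 27.0th. The other 7 genes lay between these, from 62.5 (SRXN1) to 95.7 (GCLC) in KYSE150 and from 64.6 (SRXN1) to 96.3 (TXNRD1) in KYSE510. Ranked among all protein-coding genes by their tallest peak, the members' median lay between the 58.3rd and 77.6th percentiles in KYSE150 libraries and between the 56.0th and 67.2nd in KYSE510 libraries. A longer gene has a longer window in which to find a tall peak, so these ranks are not corrected for length.

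**Figure D1:**
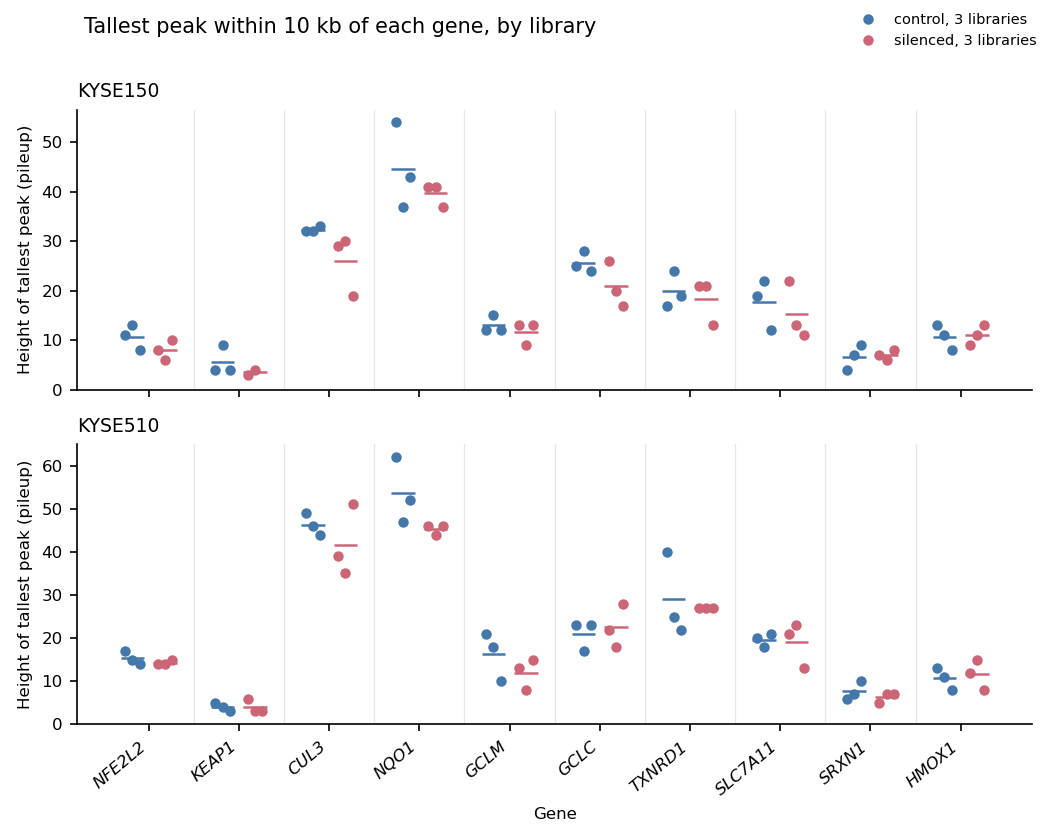
Height of the tallest peak (pileup, linear axis) within 10 kb of each gene, with 1 point per library, control libraries in blue, HCP5-silenced libraries in red and a bar at the mean of the libraries with a peak. NQO1 and CUL3 stood highest and KEAP1 lowest in both lines (KEAP1 in KYSE150 silenced replicate 3 had no peak and no point), and the control and silenced points of most genes overlapped.

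Among the regulators, NFE2L2 (chr2:177230303-177264727, minus strand) had low to middling peaks inside the gene and at its starts, though not at each start in every library. In KYSE150 its tallest peak was 11, 13 and 8 high in control replicates 1 to 3 and 8, 6 and 10 high in the silenced ones. In KYSE510 the heights were 17, 15 and 14 in control and 14, 14 and 15 in silenced libraries. Control and silenced heights overlapped in both lines. The tallest region in both lines lay inside the gene, 21411 to 21452 bp from the nearest start (chr2:177242457-177242984 in KYSE150 and chr2:177242439-177242920 in KYSE510). The region over the inner start held 7, 11 and 8 in control and 8, 5 and 6 in silenced KYSE150 libraries, and 13, 14 and 14 against 9, 13 and 13 in KYSE510. That over the outer start held 8, 8 and 5 in control and 4, 6 and 5 in silenced KYSE150 libraries. In KYSE510 the outer region had peaks only in control replicates 2 and 3 (7 and 8 high) and silenced replicate 3 (10 high). The window of the inner start had a peak in 3 of 6 KYSE150 and 5 of 6 KYSE510 libraries, and that of the outer start in 5 of 6 and 3 of 6. A region further into the gene, chr2:177239928-177240274, had a peak in all 6 KYSE510 libraries (13, 9 and 13 high in control, 11, 9 and 8 in silenced) and no deposited peak of any height in the KYSE150 libraries.

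KEAP1 (chr19:10486125-10503356, minus strand), the substrate adaptor that binds NRF2, had the lowest peaks of the set. Its tallest peak in KYSE150 was 4, 9 and 4 high in control and 3 and 4 high in silenced replicates 1 and 2, with no peak of height 3 or more in silenced replicate 3. In KYSE510 it was 5, 4 and 3 high in control and 6, 3 and 3 high in silenced libraries. That peak lay outside the gene span in KYSE510 control replicate 3 and silenced replicate 1. In silenced replicate 3 a peak outside the span tied with one inside. The region over the inner start was 5 and 4 high in KYSE510 control replicates 1 and 2. It was 3 high in silenced replicates 1 and 2, with no such peak in replicate 3 of either group. Apart from the 9 in KYSE150 control replicate 2, these values are 3 to 6 against a minimum height of 3, no region at KEAP1 was shared by all 6 libraries of a line, and the groups overlapped. CUL3 (chr2:224470150-224585363, minus strand), the cullin scaffold of the ligase, had its tallest region deep inside the gene. In KYSE150 (chr2:224485253-224485779) it lay 84439 bp from the nearer of the annotated starts, the inner one. That region was 32, 32 and 33 high in control and 29, 30 and 18 high in silenced KYSE150 libraries. Every silenced height there was below every control height, while the ranks overlapped, and the share of all regions with such a gap in height was not counted. In KYSE510 (chr2:224484913-224485953) the CUL3 region was 49, 46 and 44 high in control and 39, 35 and 51 high in silenced libraries, which overlapped. It was taller than the region over the outer CUL3 start (15 to 23 in KYSE150 and 20 to 29 in KYSE510) in 11 of 12 libraries, the exception being KYSE150 silenced replicate 3, with 18 against 19. The window of the inner CUL3 start had a peak in 0 of 12 libraries.

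NQO1 (chr16:69709401-69726560, minus strand), a quinone reductase and a standard readout of NRF2, had 1 dominant peak, over its start and that of the divergent transcript NQO1-DT (chr16:69726300-69727113 in KYSE150). It was 54, 37 and 43 high in control and 41, 41 and 37 high in silenced KYSE150 libraries. In KYSE510 it was 62, 47 and 52 high in control and 46, 44 and 46 high in silenced libraries. The heights overlapped in KYSE150, and in KYSE510 every silenced library stood below every control library, by 1 unit at the nearest pair. Heights are not normalised between libraries, and the share of all regions with such a gap in height was not counted. In rank, a gap in this direction was found at 6.68% of the KYSE510 regions tested.

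GCLM and GCLC encode the modifier and catalytic subunits of glutamate-cysteine ligase, which makes the first step of glutathione synthesis. The region over the GCLM start (chr1:93909116-93909895 in KYSE150) was 12, 15 and 12 high in control and 13, 9 and 13 high in silenced KYSE150 libraries. In KYSE510 it was 21, 18 and 7 high in control and 13, 6 and 15 high in silenced libraries. A peak in the GCLM window at the start of the neighbouring gene DNTTIP2 was the tallest, or tied with the tallest, in 1 KYSE150 library and 2 KYSE510 libraries. GCLC (chr6:53497341-53545101, minus strand) had its tallest region upstream, centred at -3016 bp from the start in KYSE150 (chr6:53547854-53548381), with heights of 25, 28 and 24 in control and 26, 19 and 17 in silenced libraries. In KYSE510 the same region was 23, 17 and 23 high in control and 22, 18 and 28 high in silenced libraries. The region over the GCLC start was lower, at 15, 12 and 12 against 8, 20 and 10 in KYSE150 and 12, 12 and 12 against 7, 9 and 11 in KYSE510. A GCLC region just beyond the 3′ end of the gene, chr6:53496809-53497179, was 17, 17 and 19 high in control and 8, 8 and 9 high in silenced KYSE150 libraries, groups that did not overlap. In rank, a gap in this direction was found at 4.97% of the KYSE150 regions tested. In KYSE510 the matching region was 10, 7 and 9 high in control and 8, 5 and 5 high in silenced libraries, which overlapped.

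TXNRD1 (chr12:104215779-104350307, plus strand), the cytosolic thioredoxin reductase, had the longest span and the most peaks, 10 to 18 per library in KYSE150 and 13 to 18 in KYSE510. The region over its inner start (chr12:104286121-104287499 in KYSE150) was 17, 24 and 19 high in control and 21, 21 and 13 high in silenced KYSE150 libraries. In KYSE510 it was 40, 25 and 22 high in control and 20, 27 and 27 high in silenced libraries. The groups overlapped in both lines. A region 3911 bp into the gene from the outer start was 34, 19 and 19 high in control and 27, 24 and 25 high in silenced KYSE510 libraries, against 9, 8 and 10 and 15, 12 and 7 in KYSE150. Among all peaks of a library its median percentile was 95.5 in KYSE510 and 74.0 in KYSE150.

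SLC7A11 (chr4:138164097-138242349), the cystine importer that supplies glutathione synthesis, had its tallest region in KYSE150 over the high-coordinate end of its span (chr4:138241761-138242731), 19, 22 and 12 high in control and 22, 13 and 11 high in silenced libraries. In KYSE510 the heights there were 20, 18 and 21 in control and 21, 20 and 12 in silenced libraries. A second SLC7A11 region inside the gene (chr4:138199421-138199953) was 19, 14 and 18 high in control and 17, 23 and 13 high in silenced KYSE510 libraries. Groups overlapped at both. A further SLC7A11 region, chr4:138222053-138222555, was 11, 12 and 7 high in control and 10, 7 and 7 high in silenced KYSE510 libraries, while KYSE150 libraries had no peak there or one at most 2 high.

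SRXN1 (chr20:646615-653200, minus strand), the sulfiredoxin that repairs over-oxidised peroxiredoxins, had low peaks over its start, 4, 7 and 9 high in control and 7, 6 and 8 high in silenced KYSE150 libraries. In KYSE510 they were 6, 7 and 10 high in control and 5, 7 and 7 high in silenced libraries. HMOX1 (chr22:35381096-35394207), the inducible haem oxygenase, had its tallest peak outside its own span, at chr22:35399776-35400492 in KYSE510, at the low-coordinate end of the neighbouring gene MCM5. That peak was 13, 11 and 8 high in control and 9, 11 and 13 high in silenced KYSE150 libraries, and 13, 11 and 8 against 12, 15 and 8 in KYSE510. The values for HMOX1 by its tallest peak are therefore those of a region at MCM5.

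After silencing, no gene of the set passed the test of its tallest peak in either line. Genes were ranked within each library by their tallest peak, ranks were turned into normal scores (1 unit is about 1 SD of the genes of a library), and limma compared silenced with control libraries over all genes with a peak in every library, with Benjamini-Hochberg adjustment over those genes. In KYSE150, limma called 0 of 14309 genes (0%; smallest adjusted p 0.596, with 395 genes higher and 351 lower at p under 0.05 before adjustment). The 9 members tested there had changes of -0.21 (NFE2L2) to 0.35 (SRXN1) score units, with a median of 0.05 against -0.0025 for all genes, SEs up to 0.32 and a smallest unadjusted p of 0.292. In KYSE510, limma called 0 of 16595 genes (0%; 597 higher and 520 lower unadjusted, smallest adjusted p 0.138). The 10 members had changes of -0.38 (GCLM) to 0.14 (GCLC), with a median of -0.08 against -0.01 for all genes and a smallest unadjusted p of 0.195. The difference between the lines in the effect of silencing was called by limma for 0 of 14076 genes (0%; 380 and 361 unadjusted, smallest adjusted p 0.343), and for 0 of the 9 members, whose smallest unadjusted p was 0.197.

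**Figure D2:**
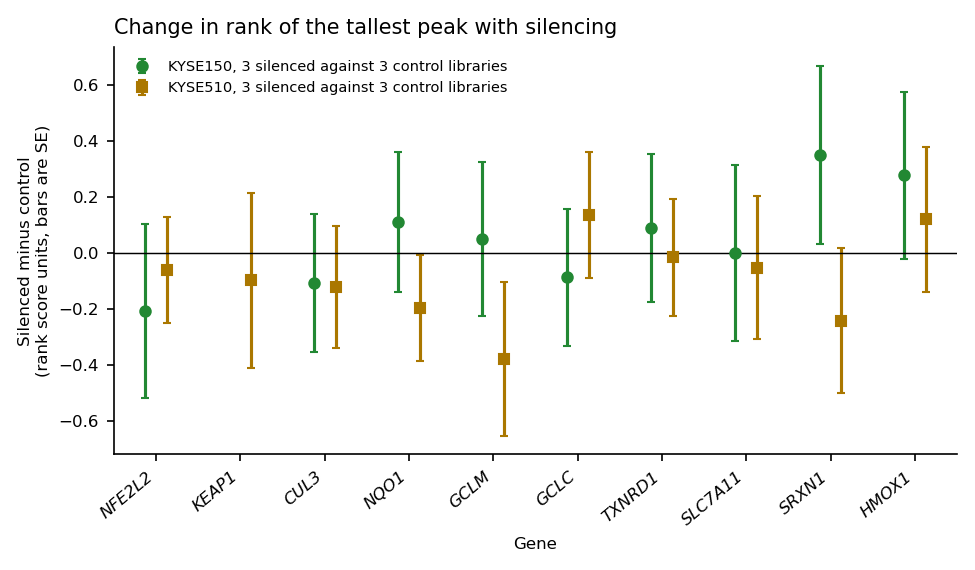
Change in the rank score of each gene's tallest peak, silenced minus control, in KYSE150 (circles) and KYSE510 (squares), 3 against 3 libraries each, with bars of 1 SE. The 19 estimates lie between -0.38 and 0.35, and 0 of them passed the test (KEAP1 was tested in KYSE510 only).

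Peak numbers did not separate the treatments either. With 3 against 3 libraries the exact permutation test cannot give a p below 0.1, so no call was possible. Control and silenced peak numbers overlapped at each of the 10 genes in both lines. Over all genes, peak numbers did not overlap in 0.907% (higher in silenced) and 2.66% (lower) of 17853 genes in KYSE150, and in 2.89% and 1.35% of 18945 genes in KYSE510. The widest gaps were at TXNRD1 in KYSE150, with 12, 13 and 18 peaks in control and 15, 12 and 10 in silenced libraries (two-sided exact permutation p = 0.6), and at NFE2L2 in KYSE510, with 6, 9 and 8 in control and 8, 9 and 11 in silenced libraries (exact permutation p = 0.5).

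**Figure D3:**
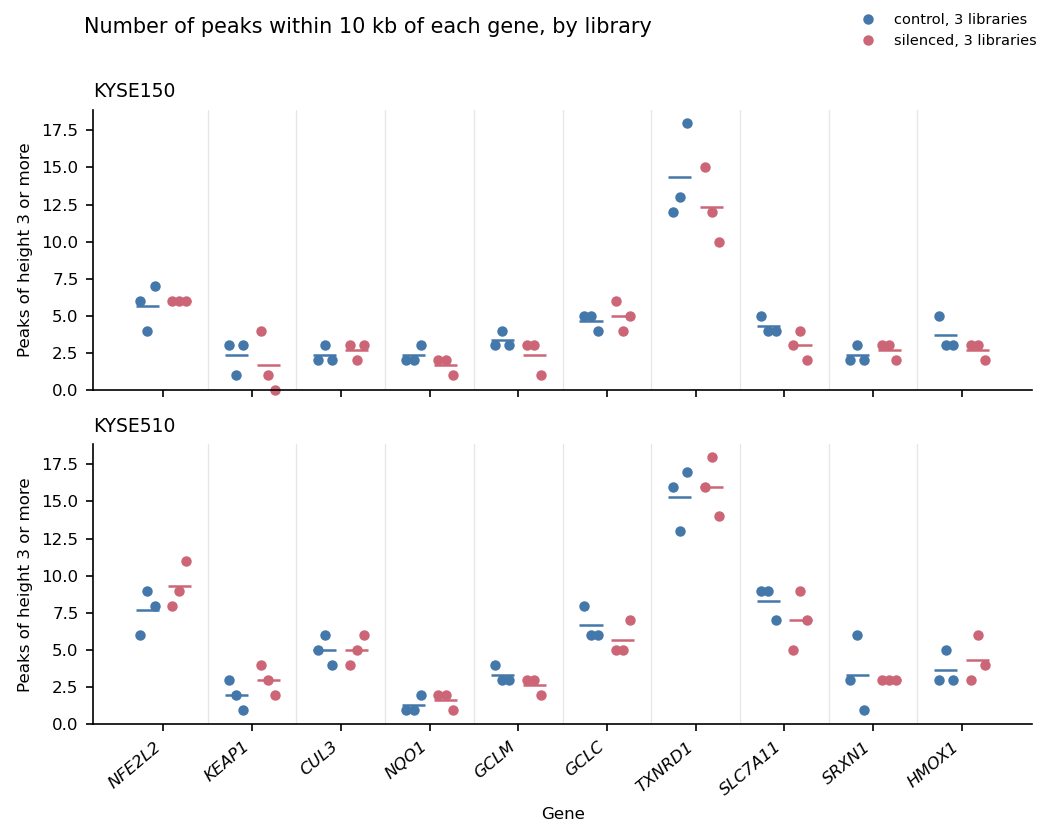
Number of peaks of height 3 or more within 10 kb of each gene, with 1 point per library, control libraries in blue, HCP5-silenced libraries in red and a bar at the group mean. Control and silenced points overlap at every gene, TXNRD1 has the most peaks (10 to 18 in KYSE150 and 13 to 18 in KYSE510), and CUL3 and SLC7A11 have more peaks in KYSE510 at this minimum height.

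Merging the peaks of the 6 libraries of a line where they overlapped by at least 1 bp gave 83 regions at the 10 genes in KYSE150 and 120 in KYSE510. Of these, 20 and 26 had a peak in all 6 libraries, which is 24.1% and 21.7% of them, against 22.8% and 17.95% of all regions. A single library held 34 and 60 of the member regions. Limma on the ranks of regions present in all 6 libraries called 0 of 27137 regions in KYSE150 (0%; 774 higher and 725 lower unadjusted) and 0 of 46254 in KYSE510 (0%; 2035 and 1693), and so 0 of the 20 and 26 at the members. The member region with the smallest p in KYSE150 was the GCLC region beyond the 3′ end, at -0.90 ± 0.29 score units (SE; unadjusted p = 0.0104, limma adjusted p = 0.896). The next were a TXNRD1 region inside the gene (chr12:104219333-104220395), at 0.50, and an SLC7A11 region (chr4:138199445-138199930), at -0.47, with adjusted p of 0.923 and 0.940. In KYSE510 the smallest p belonged to a TXNRD1 region between its starts (chr12:104255245-104255881), 11, 7 and 9 high in control and 6, 7 and 4 high in silenced libraries, at -0.79 ± 0.32 (unadjusted p = 0.0353, limma adjusted p = 0.580). The GCLC region beyond the 3′ end followed, at -0.66 (adjusted p = 0.642), and then the region over the GCLC start, at -0.48 (adjusted p = 0.694). The GCLC region beyond the 3′ end thus had a lower mean in silenced libraries in both lines, without passing the adjusted test in either. It was named for its small p, its groups overlapped in KYSE510, and 17 of the 26 member regions tested there had negative changes.

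Ranks of control and silenced libraries, among the regions present in all 6 libraries, did not overlap at 1 of the 20 member regions in KYSE150, which was the GCLC region beyond the 3′ end, lower after silencing. In KYSE510 such a gap was seen at 4 of 26, all lower, namely regions of NFE2L2 (chr2:177242439-177242920), GCLC (over the start), TXNRD1 (chr12:104255245-104255881) and NQO1 (over the start). At the NFE2L2 region the gap was one of these ranks alone, since its heights overlapped (17, 15 and 14 in control, 14, 14 and 15 in silenced libraries). No member region had silenced ranks all above the control ranks in either line. Over all regions the shares were 4.97% lower and 5.47% higher in KYSE150, and 6.68% lower and 6.46% higher in KYSE510. Regions present in all 3 libraries of one treatment and none of the other numbered 0 at the 10 genes in both lines. The background was 0.741% of all regions on the control side and 0.278% on the silenced side in KYSE150, and 0.318% and 0.64% in KYSE510.

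**Figure D4:**
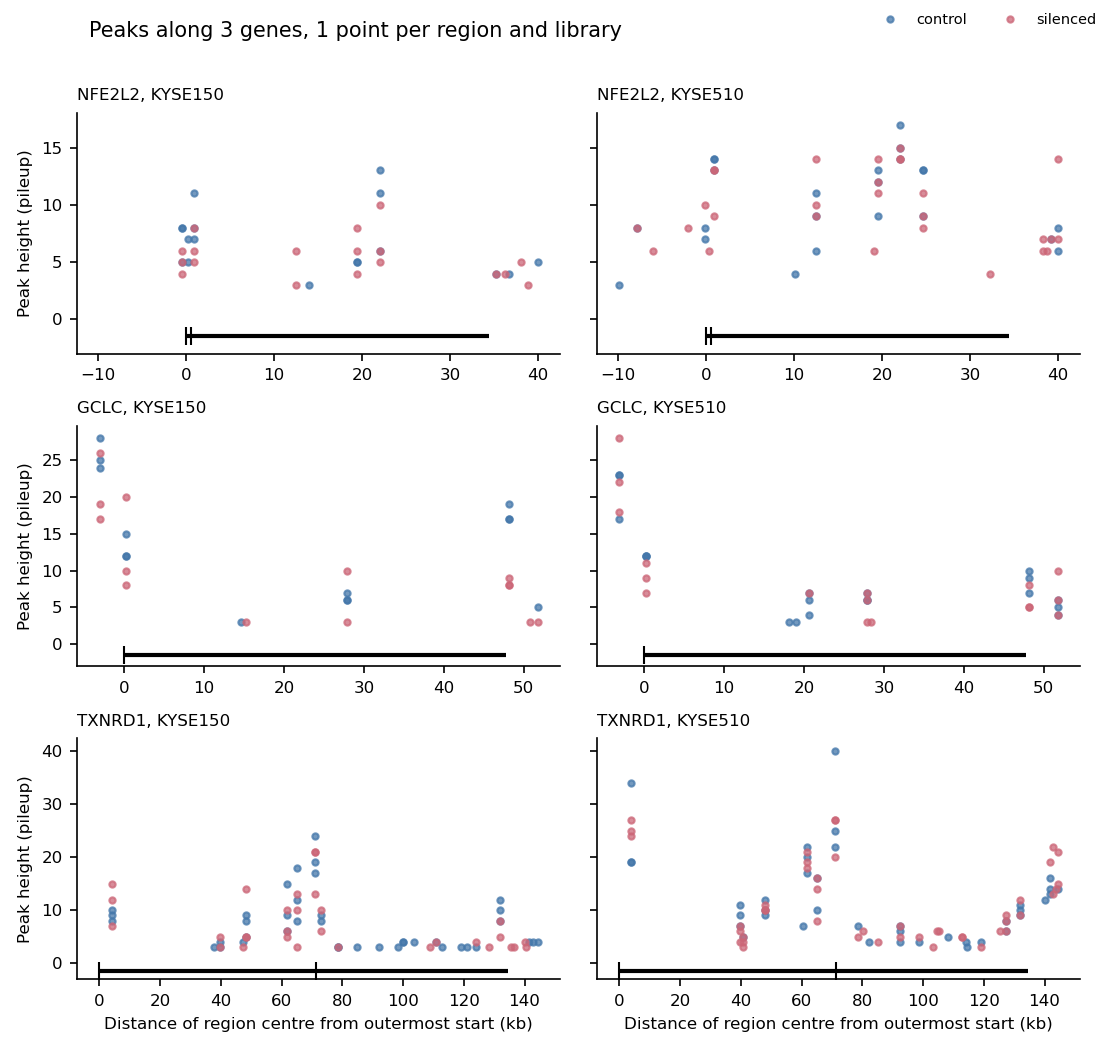
Peak height (pileup, linear axis) in each region of NFE2L2, GCLC and TXNRD1 against the distance of its centre from the outermost start (kb, positive into the gene), with 1 point per library, control in blue and silenced in red. The black line is the gene span and ticks mark the annotated starts, and the points at about 48 kb of GCLC are 17 to 19 in control and 8 to 9 in silenced KYSE150 libraries.

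Between the lines, treatments pooled, GCLC was the member whose tallest peak ranked differently. Limma called 5881 of 14076 genes (41.8%), and 1 of the 9 members tested. GCLC was lower in KYSE510 by 0.60 ± 0.16 score units (SE; limma adjusted p = 0.00695), a direction called for 21.3% of all genes tested, so 1 of 9 members is below the background. Among the genes tested it stood at the 82.2 ± 4.05 percentile in KYSE150 and the 62.5 ± 9.37 percentile in KYSE510 (SD, n = 6 each). Its tallest peak was 17 to 28 high in both lines, while the median over the genes tested of their mean tallest peak was 12.8 in KYSE150 and 17.3 in KYSE510, so the difference is one of rank. It was -0.57 with an adjusted p of 0.0668 when fold enrichment was ranked in place of height, and -0.99 with an adjusted p of 0.000595 when the window was 2 kb, which leaves out the region upstream of the start. HMOX1, at -0.46, had an unadjusted p of 0.0457 and a limma adjusted p of 0.0934. The number of members called was 2 without KYSE150 control replicate 1 or KYSE510 control replicate 3 (SRXN1 added, limma adjusted p 0.0295 and 0.0492), and without KYSE150 silenced replicate 1 or KYSE510 silenced replicate 2 (HMOX1 added, 0.0476 and 0.0444). Over all genes, 5382 to 5737 were called when each library was left out.

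The direction of the difference in peak number between the lines depended on the minimum height. The deposited lists held 546453 to 629921 peaks in KYSE150 and 115761 to 135841 in KYSE510. With every deposited peak counted, an alternative added after seeing the data, all 10 genes had fewer peaks in KYSE510. So did 96.5% of all 19788 genes with a peak. Of the 10 genes, 8 were called lower by the exact permutation test, against 81.4% of all genes called in either direction. CUL3 had 5.33 ± 1.03 peaks in KYSE510 and 27.3 ± 2.73 in KYSE150 (SD, n = 6 each). At a height of 3 or more, where the KYSE510 lists are the longer ones, peaks were more numerous in KYSE510 at 9 of the 10 genes and fewer at NQO1, and 81.0% of all genes had more peaks there. At that height, by a two-sided exact permutation test adjusted over 19078 genes, 5782 genes were called (30.3%), among them 3 members. CUL3 had 5.00 ± 0.894 peaks in KYSE510 and 2.50 ± 0.548 in KYSE150 (SD, n = 6 each; exact permutation p = 0.00216, the smallest possible, adjusted p = 0.0132). CUL3 was the 1 member whose counts did not overlap between lines, against 16.1% of all genes that were higher without overlap and 0.246% that were lower. SLC7A11 had 7.67 ± 1.63 peaks in KYSE510 and 3.67 ± 1.03 in KYSE150 (n = 6 each; exact permutation, adjusted p = 0.0231). NFE2L2 had 8.50 ± 1.64 and 5.83 ± 0.983 (n = 6 each; exact permutation, adjusted p = 0.0463). The CUL3 difference was 0.5 (adjusted p = 0.346) with a minimum height of 5 and 1.33 (adjusted p = 0.142) with a 2 kb window. The NFE2L2 call was lost with a 2 kb window (adjusted p = 0.298), with peaks of an FDR of at most 0.05 (0.230), and without any 1 of 8 libraries (KYSE150 control 1 or 2, KYSE150 silenced 1, 2 or 3, KYSE510 control 2, KYSE510 silenced 2 or 3), at 0.0576 to 0.0712.

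Per 100 kb of window, the median library had 1.85 peaks at CUL3 and 11.0 at NFE2L2 in KYSE150, the lowest and highest of the set, and in KYSE510 3.70 at CUL3 and 15.6 at NFE2L2. The median of the 10 genes was 7.08 in KYSE150 and 8.50 in KYSE510, against 3.53 and 5.77 for all genes. The CUL3 window thus held the fewest peaks for its length while its tallest peak was near the top of each library.

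Merging all 12 libraries gave 144 member regions, of which 17 (11.8%) had a peak in every library, against 7.34% of 290571 regions. Regions with a peak in all 6 KYSE510 libraries and none in KYSE150 numbered 2 at the members, the NFE2L2 and SLC7A11 regions given above, against 3.45% of all regions. The opposite pattern was found at 0 member regions, against 0.285% of all. Counting also those of a single library, 65 member regions (45.1%) were found in KYSE510 alone, against 60.1% of all regions, and 27 (18.8%) in KYSE150 alone, against 12.04% of all.

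Of 33 other genes of the pathway, 32 were in the gene table. They cover partners and competitors of NRF2 such as the small MAF proteins and BACH1, and further targets of glutathione, thioredoxin, pentose phosphate and iron metabolism. For silencing, limma called 0 of the 28 tested in KYSE150 and 0 of the 32 tested in KYSE510. The smallest p values in KYSE150 belonged to TALDO1 (-0.48), MAFF (0.49) and ME1 (0.51), with adjusted p of 0.949 to 0.956. In KYSE510 they belonged to BACH1, a repressor that competes with NRF2 for its elements (0.89 ± 0.21, unadjusted p = 0.00131, limma adjusted p = 0.493), MAFG (-0.61, adjusted p = 0.688) and FTH1, the ferritin heavy chain (0.50, adjusted p = 0.717). BACH1 also had the smallest p for the difference between lines (1.33 ± 0.33, limma adjusted p = 0.694), followed by FTH1 (0.75) and MAFG (-0.68), with adjusted p of 0.907 for both.

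Between the lines 12 of 28 pathway genes tested were called by limma, 7 higher and 5 lower in KYSE510, against 41.8% of all genes. Higher in KYSE510 were EPHX1, an epoxide hydrolase (2.49 ± 0.23, limma adjusted p = 4.3e-07), FTL, the ferritin light chain (1.80 ± 0.21, adjusted p = 4.07e-06), ME1, PGD, PRDX1, RBX1 and AKR1C2. EPHX1 stood at the 85.6 ± 9.38 percentile of the genes tested in KYSE510 and the 10.8 ± 6.76 percentile in KYSE150 (SD, n = 6 each), groups that did not overlap. Lower were UGDH, which makes UDP-glucuronic acid (-0.93 ± 0.18, limma adjusted p = 0.000456), MAFG, TXN, GSR and BACH1. The BACH1 lines overlapped, at percentiles of 10.3 to 54.6 in KYSE510 and 30.1 to 54.4 in KYSE150. Its value pools treatments that differed in KYSE510. Among the genes tested in that line alone, BACH1 stood at 17.4 ± 0.80 in control and 48.3 ± 11.3 in silenced libraries (SD, 3 libraries each). The median change of the 28 genes was 0.07, against -0.03 for all genes, and that of the 9 members tested was -0.31. The share of these genes called was close to the background, and directions were split among the 28 tested. GPX2, AKR1C1, AKR1C3 and AKR1B10 were left out, because they had a peak in every KYSE510 library but not in every KYSE150 library. Among the genes tested in KYSE510, GPX2 had mean percentiles of 91.4 (control) and 95.8 (silenced). AKR1C1, AKR1C3 and AKR1B10 had means of 17.0 to 29.4. The reverse case did not occur, as all 32 had a peak in every KYSE510 library.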

How the data were processed

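Each of the 12 ATAC-seq libraries had 1 peak table. Per the file headers, the authors gave for each peak its pileup, a signal that is the height of the peak in whole numbers, its fold enrichment, a ratio of height to local background, and a p-value and FDR. The submitters' processing notes name Trimmomatic 0.36, Bowtie2 2.2.6, Picard 2.8.2, MACS2 2.1.1, bedtools 2.25.0 and GRCh38, with no role or order. How duplicate reads were treated is not given in the sources used here. Heights are not normalised between libraries as far as the tables show, so comparisons used ranks within a library.

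Peaks on chromosomes 1 to 22, X and Y of height 3 or more were assigned to protein-coding genes of the RefSeq table for GRCh38.p14 by a window of 10 kb. The genes and gene lists were chosen with earlier results of these data known. Rank scores of genes, and of regions merged where peaks overlapped by 1 bp, were compared with limma 3.58.1 in R 4.3.3 by lmFit and eBayes, and called at a p under 0.05 after Benjamini-Hochberg adjustment. Genes or regions without a peak in every library of a fit were left out, so KEAP1 was tested in KYSE510 only. Each line was fitted alone for silencing, and all 4 groups together for the lines and the difference of effects. Peak numbers were compared with a two-sided exact permutation test, and adjusted over all genes in place of the members alone that the plan named. The fits were also run on simulated data, with shifts larger than any change of a member after silencing. That run therefore does not show whether changes of the size seen here could be detected. Python 3.11.15 with numpy 2.4.6, pandas 2.3.3, scipy 1.17.1 and matplotlib 3.10.9 was used. All 10 genes are named, with the tallest region, the region over each start, regions called or on one side only, the 3 regions per line with the smallest p, and the 3 other pathway genes per comparison with the smallest p. Alternatives were a minimum height of 5, a 2 kb window, an added FDR limit of 0.05, ranks of fold enrichment, no filter on genes, regions merged within 100 bp, the replicate number as a block, and leaving out each library, with every deposited peak counted between the lines added after seeing the data. One marker gene is not reported here.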

Additional observations from a re-analysis of the deposited data

How the results depend on the processing

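Of the counts, those of genes and regions called after silencing were 0 under the alternatives run, with these exceptions. In KYSE510, 1 gene was called when fold enrichment was ranked, and 0 to 1 when each library was left out, 1 without control replicate 3. For the difference between lines, 0 to 1 genes were called when each library was left out, again 1 without KYSE510 control replicate 3. None of these genes was a member. Members called between the lines numbered 0 with fold enrichment ranked, against 2013 genes higher and 1971 lower in KYSE510 of 14076 tested. With no filter on genes they numbered 3 (KEAP1 and SRXN1 joining GCLC), against 3886 higher and 4546 lower of 19078. They numbered 1 to 2 when each library was left out, against 5382 to 5737 of all genes. Members whose peak numbers did not overlap after silencing numbered 1 in KYSE150 with the FDR limit (GCLM, lower) and 1 in KYSE510 with a minimum height of 5 (GCLM, lower). Leaving out each library gave 0 to 1 in both lines, with 1 without KYSE150 silenced replicate 2 (SLC7A11, lower) and 1 without KYSE510 silenced replicate 3 (GCLC, lower). The shares of all genes without overlap under these alternatives were not counted. Members called by peak number between lines numbered 1 with a 2 kb window, where the share of all genes called was not counted. They numbered 8, all lower in KYSE510, with every deposited peak counted, an alternative added after seeing the data, where 81.4% of all genes were called. The differences, KYSE510 minus KYSE150, then turned to -0.167 peaks at NFE2L2, -22 at CUL3 and -13.2 at SLC7A11. With every deposited peak, whatever its height, 1 member region (HMOX1) was on the silenced side only in KYSE510, against 1678 of 307296 regions in all. Some directions turned. The NFE2L2 change after silencing in KYSE150 was -0.47 to 0.0135 when each library was left out, above 0 without silenced replicate 2. The GCLC change in KYSE510 was -0.32 with a 2 kb window and -0.00613 to 0.27 when each library was left out, below 0 without silenced replicate 3, and its difference between lines was -0.083 with a 2 kb window. The causes were not tested. The 2 kb window leaves out the GCLC region upstream of the start, and whether that turned the direction was not tested either.

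Same-numbered control and silenced libraries deviated from their group means with correlations of 0.015 to 0.0964 across genes, all too small to take the numbers as pairs, although each of the 6 correlated best with its own number, a hint from the data and not from the design. With the replicate number as a block, members called between the lines numbered 2 (SRXN1 joining GCLC), 5961 genes in all, and the counts after silencing remained 0. The number of libraries per group and heights of a few units limit what could be detected.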

Other observations

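At the low-coordinate end of the HMOX1 span itself (chr22:35380861-35381481), heights in KYSE510 were 11, 7 and 7 in control libraries and 4 and 5 in silenced replicates 1 and 2, with no peak of height 3 or more in silenced replicate 3. In KYSE150 the matching region was 4, 3 and 5 high in control and 4 and 5 high in silenced replicates 1 and 2, again with none in replicate 3. The region lacked a peak in 1 library of each line and so entered no rank test, and it was singled out after its values were seen.

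Downstream of TXNRD1, within 10 kb of its 3′ end, KYSE510 libraries had 1 or 2 peaks each, 12 to 22 high, over local backgrounds of 2.90 to 4.66 height units. KYSE150 libraries had 0 to 2 peaks there, 3 or 4 high, over backgrounds of 0.32 to 0.68. The part of the background in this difference was not tested.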
